A study of Drosophila melanogaster with 21 samples.

Results

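*ocelliless* (*oc*, also written *otd*) and *pannier* (*pnr*) are transcription factor genes that pattern the dorsal part of the fly head, and their RNA was followed here through normal and tumour-bearing eye-antennal discs of *Drosophila melanogaster*. They were taken by name: every probe set whose array annotation gave *oc* or *pnr* as its only symbol. This gave 1 probe set for each (1626946_at for *oc*, 1634370_a_at for *pnr*), that is 2 genes of the 11982 genes on the array with a symbol of their own. *oc* lies on chromosome X and *pnr* on chromosome arm 3R. RefSeq lists 6 transcripts of *oc* and 4 of *pnr*, and the annotation does not say which of them the probes detect.

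The larval eye-antennal disc is the epithelium that gives rise to the compound eye, the antenna, the simple eyes on top of the head (the ocelli) and the surrounding head capsule. *oc* encodes a homeodomain protein of the Otx family that is needed for the ocelli and the dorsal vertex of the head, for antennal tissue, for the head of the embryo and, later, for the maturation of photoreceptors. *pnr* encodes a zinc finger protein of the GATA family that is made along the dorsal margin of the eye disc, where it sets head capsule apart from eye, and in the dorsal thorax, where it controls the proneural genes *achaete* and *scute*. Neither gene is made throughout the disc, so that a level measured in whole discs depends both on how many cells make the RNA and on how much each makes, and these cannot be told apart here.

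The samples were 21 arrays in 7 groups of 3, all from mosaic discs of 3rd instar larvae of a w1118 background, dissected 5 days after egg deposition. All larvae carried clones made by MARCM, in which ey-FLP1 recombines FRT82B chromosomes in the disc and Tub-GAL4 drives the transgenes in the GFP-marked clones, while the remaining tissue is wild type, so that every value mixes clone and neighbour. The control had FRT82B clones with no tumour gene. The ab group overexpressed the BTB-zinc finger gene *abrupt* in otherwise wild-type clones, and scrib-+ab did so in clones mutant for the polarity gene *scribbled* (the *scrib*1 allele). The other 4 groups had *scrib* mutant clones with activated Ras (scrib-+RasACT) or activated Notch (scrib-+NACT), each with and without bskDN, a dominant-negative form of Basket, the *Drosophila* Jun N-terminal kinase (JNK). The methods give fewer discs for ab and scrib-+ab than for the control, and no disc number for the 4 Ras and Notch groups.

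Each value is the log2 GCRMA signal of a probe set, on which 1 unit is a doubling. A gene is called changed at an adjusted p under 0.05 in limma with an absolute log2 difference over 1. The methods state that the samples of ab, scrib-+ab and the control were prepared in triplicate. Neither they nor the labels say that the 3 arrays of a group came from separate collections of larvae. The p-values therefore reflect array-to-array spread alone, which may be technical. The brightest of the 3 *bsk* probe sets read 15.75 to 15.82 on the 6 arrays labelled bskDN and 10.79 to 12.02 on the other 15. The 11 eye-antennal disc markers were all above the floor in every group. The 6 ab and scrib-+ab arrays stood apart in 2 ways: the poly-A spike-in controls averaged 2.20 to 2.26 on them and 5.80 to 8.01 on the other 15, and the 5′ minus 3′ difference of the GAPDH probe sets was -3.69 to -2.20 against -0.67 to -0.29. Any comparison of ab or scrib-+ab with a group outside this pair therefore also compares arrays that differ in these controls. Between ab and scrib-+ab the GAPDH ranges overlapped, at -3.69 to -2.20 and -3.04 to -2.72. Their poly-A averages were close but did not overlap, at 2.20 to 2.21 and 2.22 to 2.26. On the ab arrays 40.3% to 41.1% of probe sets read the floor value, against 35.2% to 35.8% on the scrib-+ab arrays. The comparison of scrib-+ab with ab thus also compares arrays that differ in this percentage, whose part in its results was not tested.

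In the control, *oc* and *pnr* were both at a middle level of the scale, which ran from a floor of 2.17 to 16.17. *oc* read 7.88, 8.11 and 8.37 on the 3 control arrays, with a mean of 8.12 ± 0.24 (SD, n = 3). *pnr* read 8.19, 8.54 and 8.12, with a mean of 8.28 ± 0.23 (SD, n = 3). Signals of different probe sets are not set against each other here, since probes differ in how strongly they bind.

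**Figure D1:**
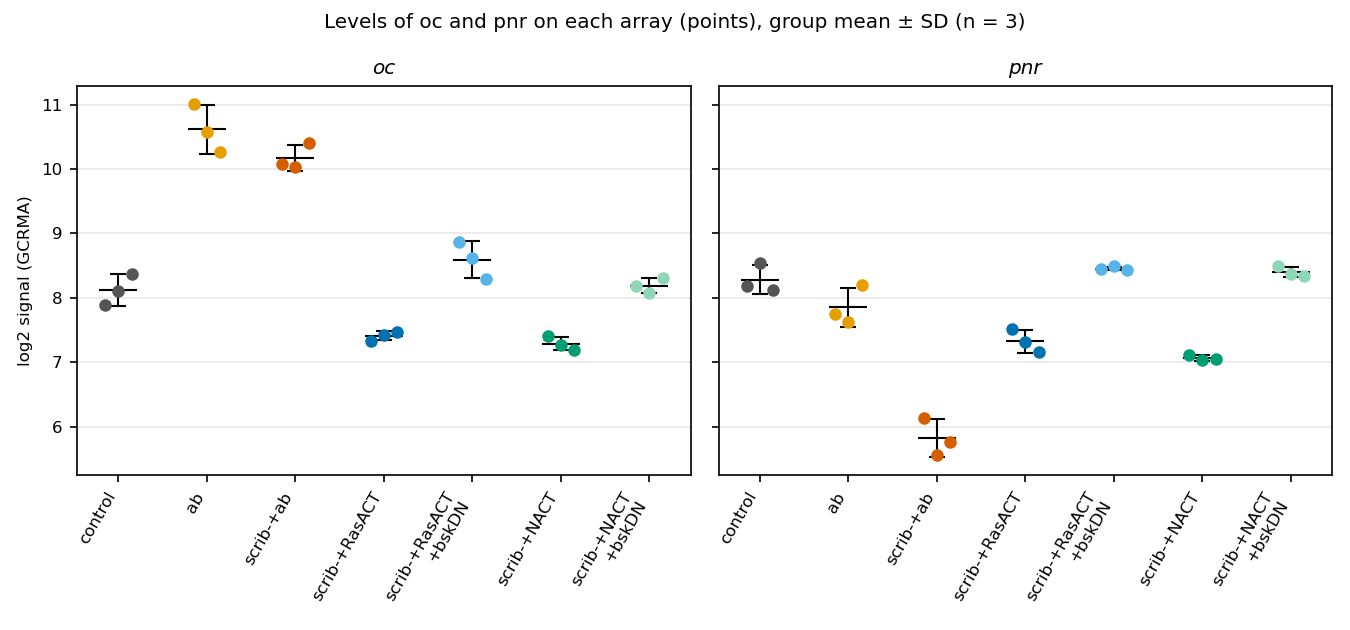
Log2 GCRMA signal of *oc* (left) and *pnr* (right) on each of the 21 arrays (points), with the group mean (wide bar) and SD (n = 3), for the 7 genotypes on the x axis. *oc* lies above 10 only in ab and scrib-+ab, *pnr* is lowest in scrib-+ab, and both genes are lower in the Ras and Notch tumours than in the same tumours with bskDN.

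The question of the first comparison was what overexpression of *ab* alone does to the disc. *oc* was 5.63-fold higher in ab discs than in the control. It read 11.01, 10.57 and 10.26 on the 3 ab arrays, a mean of 10.62 ± 0.38 (SD, n = 3). Every ab array was above every control array, with a gap of 1.89 between the nearest. The log2 difference was 2.49 (SE 0.23, 95% interval 1.95 to 3.04, limma adjusted p = 0.00039), and 469 of the 18769 probe sets tested, 2.50%, rose by more.

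*pnr* did not pass the test in the same discs. Its values in ab were 7.75, 7.62 and 8.20, a mean of 7.86 ± 0.30 (SD, n = 3), and the highest of them lay within the range of the control. The log2 difference was -0.43 (SE 0.22, 95% interval -0.96 to 0.10, limma adjusted p = 0.25). Thus 1 of the 2 genes was called in ab discs, where 14.5% of all probe sets were called, 8.68% higher and 5.87% lower.

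In scrib-+ab discs, in which *ab* is combined with the loss of *scrib*, *oc* rose and *pnr* fell. *oc* read 10.08, 10.02 and 10.40, a mean of 10.17 ± 0.21 (SD, n = 3), which is 4.13-fold above the control. All 3 values were above the 3 control values. The log2 difference was 2.05 (SE 0.23, 95% interval 1.50 to 2.59, limma adjusted p = 0.00071), and 4.08% of the probe sets rose by more.

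*pnr* read 6.14, 5.56 and 5.77 in scrib-+ab, a mean of 5.82 ± 0.30 (SD, n = 3). These were the lowest 3 of its 21 values, and the mean was 5.51-fold below the control. The log2 difference was -2.46 (SE 0.22, 95% interval -2.99 to -1.93, limma adjusted p = 0.00028), and 314 probe sets, 1.67%, fell by more. Both genes were thus called against a background of 17.2% of probe sets, 8.72% higher and 8.46% lower. The comparisons of ab and of scrib-+ab with the control share the 3 control arrays, so they are not separate measurements of a change from normal.

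Setting scrib-+ab against ab asks what the loss of *scrib* adds to *ab*, and here *pnr* was called and *oc* was not. *pnr* was 4.09-fold lower in scrib-+ab, with no overlap of the 3 arrays against 3. Its log2 difference was -2.03 (SE 0.22, 95% interval -2.56 to -1.50, limma adjusted p = 0.0035), with 214 probe sets, 1.14%, falling by more. *oc* overlapped between these groups, at 10.02 to 10.40 against 10.26 to 11.01, with a difference of -0.45 (SE 0.23, 95% interval -0.99 to 0.10, limma adjusted p = 0.36). In this comparison 4.28% of the probe sets were called, 1.82% higher and 2.46% lower.

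Markers of other cells also differed between these 3 groups. The summed log2 signal of 6 haemocyte (blood cell) markers was 9.93 to 10.72 in the control, 11.87 to 12.13 in ab and 12.60 to 12.81 in scrib-+ab. That of 3 muscle markers was 7.02 to 8.43, 10.47 to 11.36 and 11.26 to 11.69. Of all probe sets, 8.68% were called higher and 5.87% lower in ab against the control, and 8.72% and 8.46% in scrib-+ab. Against the control, 2 of the 6 haemocyte markers rose in ab and 3 in scrib-+ab, and all 3 muscle markers rose in both. No marker of either list was called lower, though the haemocyte marker *srp* was at -0.29 in ab and -1.65 in scrib-+ab, uncalled. The 6 brain and neuroblast markers summed to 10.72 to 10.93, 9.10 to 9.58 and 11.01 to 11.20, but their members moved in opposite ways. In ab 2 of them fell, and in scrib-+ab 4 fell (*dpn* at -4.55, *mira* at -3.07, *ase* at -1.59 and *repo* at -1.70) while *insc* rose by 3.62 (list median -1.64). *bsh* was at the floor or within 0.1 of it in these groups. The 2 fat body markers reported here summed to 7.42 to 9.70, 5.20 to 6.83 and 4.88 to 7.06. Neither was called in ab, and *Fbp1* fell in scrib-+ab. The 5 wing disc markers summed to 7.84 to 7.98, 9.76 to 9.95 and 7.40 to 8.91. The 11 eye-antennal markers, of the tissue itself, summed to 14.98 to 15.09 in the control, 14.41 to 14.50 in ab and 13.76 to 14.02 in scrib-+ab. Of these 11, 4 fell in ab and 8 in scrib-+ab, all of them genes that act in the eye disc, and 2 rose in both, the antennal and appendage gene *Dll* (1.73 in ab, 1.33 in scrib-+ab) and *ct*, a homeobox gene of the antennal disc (2.55 and 2.00). The other probe sets of *Dll* were at -0.22 and -2.59 in scrib-+ab, and those of *ct* at -0.20 and 1.60. The part of these tissues in the values of *oc* and *pnr* was not tested.

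The Ras and Notch tumours were compared with and without bskDN to ask what JNK activity does in them. In the Ras tumours both genes were lower when JNK was active. *oc* read 7.34, 7.42 and 7.47 in scrib-+RasACT (mean 7.41 ± 0.070, SD, n = 3) and 8.87, 8.61 and 8.30 with bskDN (mean 8.59 ± 0.28, SD, n = 3). The groups did not overlap, and *oc* was 2.27-fold lower with active JNK, a log2 difference of -1.18 (SE 0.13, 95% interval -1.49 to -0.88, limma adjusted p = 0.00082).

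*pnr* read 7.51, 7.31 and 7.16 in scrib-+RasACT (mean 7.33 ± 0.18, SD, n = 3) and 8.44, 8.49 and 8.43 with bskDN (mean 8.46 ± 0.030, SD, n = 3). The 3 bskDN values were all higher and lay within 0.1 of each other. *pnr* was 2.18-fold lower with active JNK, a log2 difference of -1.13 (SE 0.080, 95% interval -1.31 to -0.94, limma adjusted p = 7.6e-05). Both genes were called here, where 4.22% of the probe sets were called, 1.78% higher and 2.44% lower.

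In the Notch tumours *pnr* was again lower with active JNK, and *oc* missed the limit on size. *pnr* read 7.12, 7.04 and 7.06 in scrib-+NACT (mean 7.07 ± 0.042, SD, n = 3) and 8.49, 8.37 and 8.34 with bskDN (mean 8.40 ± 0.079, SD, n = 3). The groups were far apart for their spread. The fold was 2.52, a log2 difference of -1.33 (SE 0.080, 95% interval -1.52 to -1.15, limma adjusted p = 1.8e-05), and 186 probe sets, 0.991%, fell by more.

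*oc* read 7.40, 7.27 and 7.20 in scrib-+NACT (mean 7.29 ± 0.10, SD, n = 3) and 8.18, 8.08 and 8.31 with bskDN (mean 8.19 ± 0.12, SD, n = 3). These values did not overlap either. The log2 difference was -0.90 (SE 0.13, 95% interval -1.20 to -0.60), with a limma adjusted p of 0.0021, but its size stayed under 1 and it was not called. With array weights in the fit it was -1.0003 and was called (limma adjusted p = 4.2e-05). In this comparison 5.37% of the probe sets were called, 3.73% higher and 1.64% lower.

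The JNK differences in the 2 kinds of tumour use separate arrays, and the test of their difference called neither gene. For *oc* the JNK difference in Ras tumours minus that in Notch tumours was -0.28 (SE 0.19, 95% interval -0.71 to 0.15, limma adjusted p = 0.58). For *pnr* it was 0.20 (SE 0.11, 95% interval -0.056 to 0.47, limma adjusted p = 0.43). The call of *oc* in Ras tumours and not in Notch tumours is therefore not shown to be a difference between them. This interaction called 4.51% of all probe sets, 1.22% higher and 3.29% lower.

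Haemocyte and muscle markers moved in these comparisons too. The haemocyte markers summed to 10.27 to 10.88 in scrib-+RasACT and 9.51 to 10.16 with bskDN, and to 9.96 to 11.17 in scrib-+NACT and 8.48 to 9.07 with bskDN. The muscle markers summed to 9.10 to 9.58 against 7.10 to 8.49 in the Ras pair and 7.74 to 8.73 against 4.28 to 4.82 in the Notch pair. With active JNK, 1 of 6 haemocyte and 1 of 3 muscle markers rose in the Ras pair. In the Notch pair 4 of 6 and 3 of 3 rose, and none fell in either pair. The brain and neuroblast markers summed to 10.58 to 10.81 against 11.05 to 11.28 and 11.57 to 11.80 against 12.42 to 12.72, again with members that moved in opposite ways. In the Ras pair *dpn* and *mira* fell with active JNK and *insc* rose (list median -0.26). In the Notch pair *dpn* fell and *insc* and *repo* rose (list median 0.66). Over all probe sets 1.78% were called higher and 2.44% lower in the Ras pair, and 3.73% and 1.64% in the Notch pair. The eye-antennal markers summed to 13.86 to 14.28 against 14.35 to 14.46 in the Ras pair. In the Notch pair they summed to 14.26 to 14.62 against 14.25 to 14.33. The 2 fat body markers reported here varied widely within groups and were called in neither pair. They summed to 5.35 to 5.48 against 5.83 to 12.92 in the Ras pair and 7.82 to 11.54 against 6.56 to 6.79 in the Notch pair. The 5 wing disc markers summed to 8.33 to 8.96 against 8.36 to 8.62 in the Ras pair, with no member called. In the Notch pair they summed to 7.92 to 8.20 against 8.94 to 9.46. There *nub* was at -3.08 with active JNK (limma adjusted p = 0.00016), and the others were uncalled (list median 0.091). The part of these tissues in the JNK differences of *pnr* and *oc* was not tested.

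Against the control, the Ras and Notch tumours without bskDN lay below it for both genes, and those with bskDN lay near it. *pnr* was 2.32-fold lower in scrib-+NACT than in the control, a log2 difference of -1.21 (SE 0.16, 95% interval -1.55 to -0.88, limma adjusted p = 0.00011), and was called, as were 4.03% of the probe sets, 1.65% higher and 2.38% lower. In scrib-+RasACT the difference was -0.96 (SE 0.16, 95% interval -1.30 to -0.62, limma adjusted p = 0.00048), just under the limit on size, where 6.43% of the probe sets were called, 2.75% higher and 3.68% lower. That call was gained, at -1.05, -1.01 and -1.04, without scrib-+RasACT replicate 1, control replicate 1 or control replicate 3.

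For *oc* neither tumour was called against the control, although none of its values in scrib-+RasACT or scrib-+NACT reached the lowest control value. The log2 difference was -0.71 in scrib-+RasACT (SE 0.18, 95% interval -1.10 to -0.32, limma adjusted p = 0.011) and -0.83 in scrib-+NACT (SE 0.18, 95% interval -1.22 to -0.44, limma adjusted p = 0.0066). All of these comparisons share the 3 control arrays.

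With bskDN the intervals of the difference from the control were narrow for *pnr* and included 0. In scrib-+RasACT+bskDN it was 0.17 (95% interval -0.17 to 0.51, limma adjusted p = 0.76) and in scrib-+NACT+bskDN 0.12 (95% interval -0.22 to 0.46, limma adjusted p = 0.99). *oc* differed by 0.47 in the Ras group (95% interval 0.083 to 0.86, limma adjusted p = 0.14) and by 0.068 in the Notch group (95% interval -0.32 to 0.46, limma adjusted p = 1). None of the 4 was called, where 3.38% of the probe sets were called in the Ras group (1.87% higher, 1.51% lower) and 5.71% in the Notch group (1.58% higher, 4.13% lower). A p above the threshold does not show that the levels are equal. The intervals leave room for differences of up to 0.86 for *oc* and 0.51 for *pnr*.

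**Figure D2:**
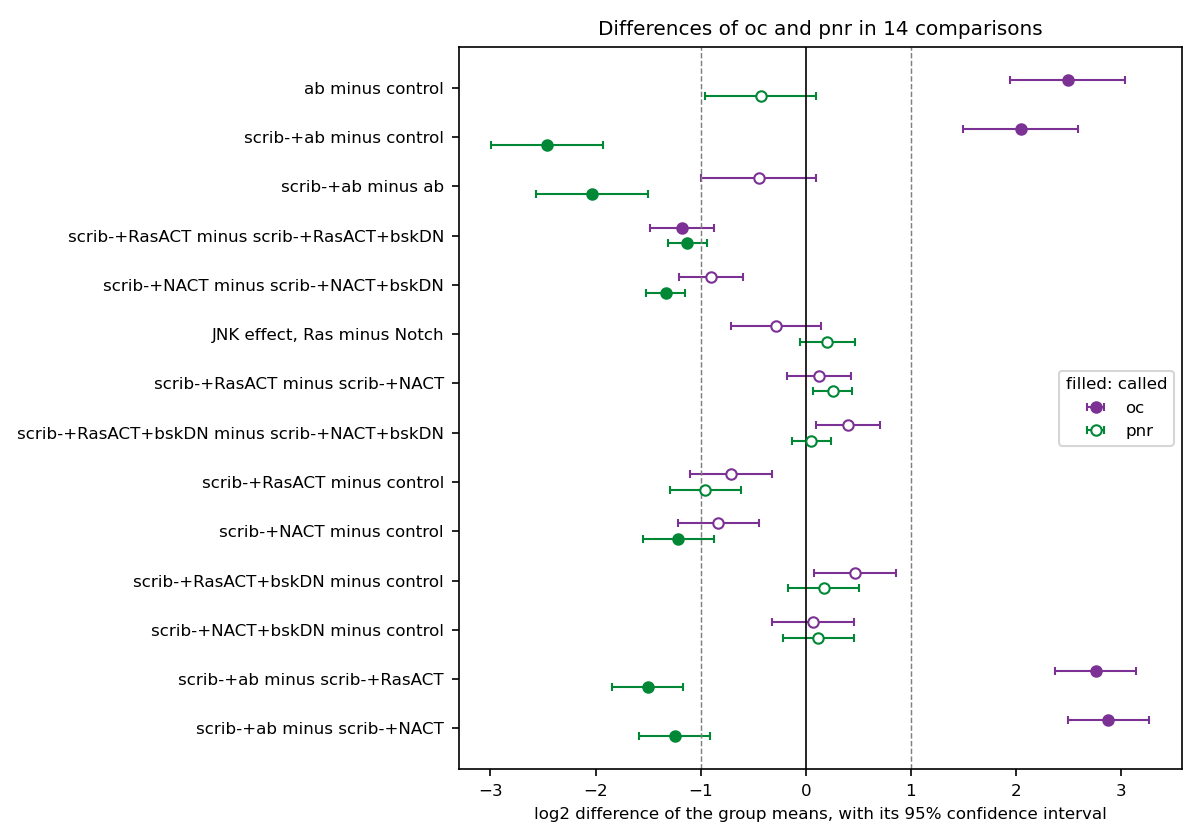
Log2 difference of *oc* (purple) and *pnr* (green) in the 14 comparisons, with the 95% interval from limma; filled points were called and the dashed lines mark a difference of 1 in either direction. *oc* was called 5 times, 4 higher and 1 lower, and *pnr* 7 times, always lower.

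Set against each other, the tumours of the different oncogenes split most on *oc*. It was 6.76-fold higher in scrib-+ab than in scrib-+RasACT (log2 difference 2.76, SE 0.18, 95% interval 2.37 to 3.15, limma adjusted p = 9.1e-09). It was 7.36-fold higher than in scrib-+NACT (2.88, SE 0.18, 95% interval 2.49 to 3.27, limma adjusted p = 5.9e-09). All 3 tumour types have *scrib* mutant clones, so they share the loss of *scrib* and differ in the oncogene, and also in the array controls given above.

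*pnr* was lower in scrib-+ab than in either of the other tumours, both of which were themselves under the control mean. The difference was -1.50 from scrib-+RasACT (2.84-fold, SE 0.16, 95% interval -1.84 to -1.17, limma adjusted p = 1.5e-06) and -1.25 from scrib-+NACT (2.37-fold, SE 0.16, 95% interval -1.58 to -0.91, limma adjusted p = 1.2e-05). Both genes were called in both comparisons, where 17.0% (9.19% higher, 7.82% lower) and 16.3% (9.09% higher, 7.20% lower) of the probe sets were called. The Ras and Notch tumours themselves differed little, by 0.12 for *oc* (95% interval -0.18 to 0.43, limma adjusted p = 0.80) and 0.26 for *pnr* (95% interval 0.074 to 0.44, limma adjusted p = 0.11), and neither gene was called, against 1.97% of the probe sets, 1.19% higher and 0.778% lower. With bskDN they differed by 0.40 for *oc* (95% interval 0.0995 to 0.71, limma adjusted p = 0.078) and 0.053 for *pnr* (95% interval -0.13 to 0.24, limma adjusted p = 0.94), again with no call, against 6.30% of the probe sets, 4.26% higher and 2.04% lower.

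Ranked by group mean, *oc* ran from ab through scrib-+ab, scrib-+RasACT+bskDN, scrib-+NACT+bskDN, the control and scrib-+RasACT to scrib-+NACT. Its order held 2 steps at which the arrays of the neighbouring groups did not overlap. The larger, 1.58 between scrib-+ab and scrib-+RasACT+bskDN (limma adjusted p = 3.6e-06), separated the ab-expressing discs from all the others. The smaller, 0.71 between the control and scrib-+RasACT (limma adjusted p = 0.011), was under the limit on size. It separated the Ras and Notch tumours without bskDN. The other neighbours overlapped.

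*pnr* ran from scrib-+RasACT+bskDN through scrib-+NACT+bskDN, the control, ab, scrib-+RasACT and scrib-+NACT to scrib-+ab. The upper 4 groups formed a series in which neighbours overlapped. Below them came a step of 0.53 from ab to scrib-+RasACT (limma adjusted p = 0.015), one of 0.26 to scrib-+NACT (limma adjusted p = 0.43), where the groups did not overlap but the difference did not pass, and one of 1.25 to scrib-+ab (limma adjusted p = 1.2e-05). The SD within a group was at most 0.38 for *oc* and 0.30 for *pnr*, well under the *pnr* step of 1.25. At the *pnr* step of 0.26 the SD was 0.18 in scrib-+RasACT and 0.042 in scrib-+NACT.

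**Figure D3:**
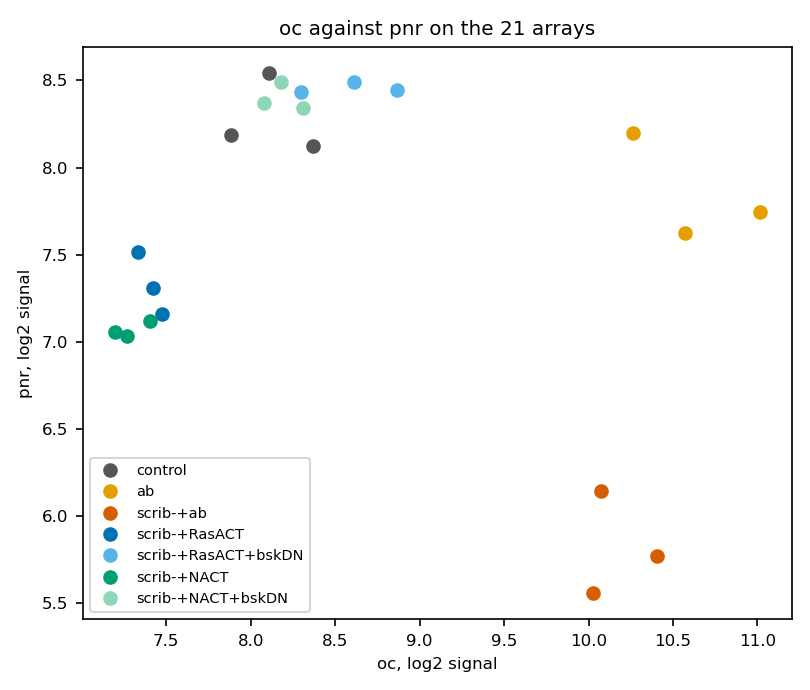
Log2 signal of *pnr* (y axis) against that of *oc* (x axis) on the 21 arrays, coloured by group. The control and the bskDN groups share the area with *oc* near 8 and *pnr* above 8, the Ras and Notch tumours lie below and to the left, ab lies to the right at a *pnr* level between 7.62 and 8.20, and scrib-+ab lies at the lower right.

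Plotted together, the 2 genes placed the arrays in 4 areas of the plane. In the Ras and Notch tumours the values of both genes were lower than in the same tumours with bskDN, and in ab discs *oc* was high with *pnr* at 7.62 to 8.20. The scrib-+ab discs were the group with high *oc* and low *pnr* together. Since the groups fall apart into these areas, no correlation was computed.

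Around *oc*, a list of 12 genes of the ocellar and head capsule network was followed, of which 10 are reported here. In ab discs 4 of the 10 fell and none rose (median -0.98), against 5.87% of all probe sets called lower and a median of 0 over all of them. In scrib-+ab 7 fell and none rose (median -1.23), against 8.46% called lower, while *oc* itself rose in both. Genes of the Hedgehog pathway, which patterns the ocellar region, were among them. *ptc*, the Hedgehog receptor and a target of the pathway, fell by 3.84 in ab and by 4.0 in scrib-+ab, from a control mean of 7.32 (limma adjusted p = 0.00020 and 0.00013). *ci*, the transcription factor of the pathway, fell by 1.26 and by 1.67 (limma adjusted p = 2.4e-05 and 6.4e-06). The ligand gene *hh* was not called, at 0.31 and -0.32.

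Genes of ocelli and of eye identity were among those that fell. *noc*, a zinc finger gene needed for the ocelli, fell by 1.69 in ab and by 2.43 in scrib-+ab (limma adjusted p = 0.00092 and 0.00016). *ey*, a Pax6 gene of eye identity, fell by 1.43 and by 1.08 (limma adjusted p = 0.0011 and 0.0031). *eya*, a cofactor of the retinal network, and *toy*, the other Pax6 gene, fell in scrib-+ab, by 1.73 and 1.23 (limma adjusted p = 0.00052 and 0.0015), and were at -0.76 and -0.98 in ab, uncalled. Of the *engrailed* pair, *inv* fell by 1.22 in scrib-+ab (limma adjusted p = 0.013) and *en* was at -0.81, uncalled.

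*toy* has 3 probe sets, which did not move together. The one with the highest signal is given above, the next was at -0.98 in ab and -1.38 in scrib-+ab, and the dimmest was at 0.94 and 0.67. In the JNK comparisons none of the 10 genes was called, with medians of -0.52 in Ras and -0.43 in Notch tumours. Against ab, only *inv* changed in scrib-+ab among the 10, by -1.29 (limma adjusted p = 0.029), and this call was lost in 4 of the alternative settings.

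Around *pnr*, a list of 10 partners and dorsal genes was followed, of which 9 are reported here. The proneural genes *ac* and *sc*, which GATA factors and their partners control in the thorax, rose in ab and fell in scrib-+ab. The mean of *ac* was 8.21 with control clones, 9.52 in ab and 6.51 in scrib-+ab, so that it rose by 1.31 and fell by 1.70 (limma adjusted p = 0.028 and 0.0089). *sc* had means of 8.75, 10.09 and 7.47, so that it rose by 1.34 and fell by 1.28 (limma adjusted p = 0.00085 and 0.00081). Between scrib-+ab and ab they fell by 3.01 and by 2.62 (limma adjusted p = 0.0039 and 0.00058), in the comparison in which *pnr* fell by 2.03.

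*tup*, a LIM-homeodomain gene of the dorsal thorax, rose by 2.31 in ab (limma adjusted p = 0.0067) and was at 0.52, uncalled, in scrib-+ab. *tup* is itself a member of the wing disc marker list. *ush*, a cofactor that binds Pnr protein, and *Chi*, a LIM-domain binding cofactor, were called in none of the 14 comparisons, nor were the Iroquois genes *ara* and *caup* or the growth factor gene *dpp*. In counts, 3 of the 9 genes rose and none fell in ab (median -0.018), where 8.68% of all probe sets were called higher. In scrib-+ab none rose and 3 fell (median -0.77), where 8.46% were called lower. Between scrib-+ab and ab 4 fell (median -0.67), or 2 with trended and robust eBayes, where 2.46% were called lower.

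*mirr*, the Iroquois gene of the dorsal eye, has 2 probe sets that disagreed in the ab-expressing discs. Their mean signals were close, at 8.61 and 8.60. The former, which the counts use, was at -0.40 in ab, uncalled. In scrib-+ab it fell by 1.47 (limma adjusted p = 4.4e-05). The other was at 1.15 in ab and 0.36 in scrib-+ab. In Ras tumours both were lower with active JNK, at -1.44 (limma adjusted p = 0.0019) and -1.54. With *ac* at -1.44 and *sc* at -1.85 (limma adjusted p = 0.011 and 0.0022), 3 of the 9 genes fell with active JNK in Ras tumours and none rose (median -0.32), against 2.44% of all probe sets called lower. When these 2 groups were fitted alone 1 of the 9 fell. In Notch tumours none was called (median 0.15). *pnr* fell in both.

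**Figure D4:**
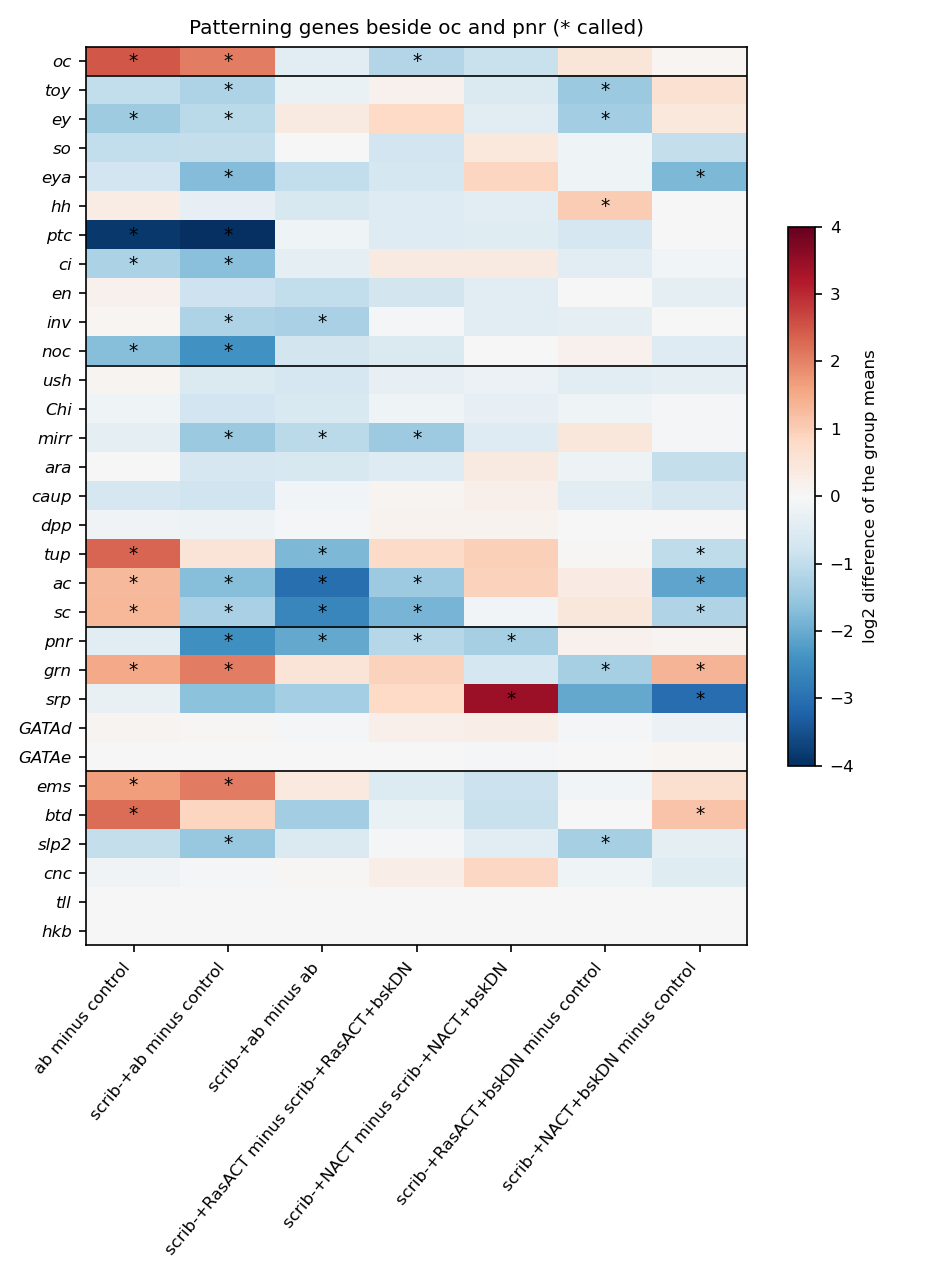
Log2 difference of *oc*, *pnr* and the genes followed beside them (rows) in 7 comparisons (columns), red for higher and blue for lower in the first group named, with an asterisk where the gene was called. Colours end at 4 in either direction. In the first pair of columns, where *oc* is red, 4 and 7 of the ocellar network genes are blue with an asterisk and none is red with one, and *ac* and *sc* change from red in ab to blue in scrib-+ab.

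Related genes of the same families were measured beside them. Of the 5 GATA genes of the fly, *grn* rose in ab by 1.52 and in scrib-+ab by 2.04 (limma adjusted p = 0.0011 and 0.00024), the latter being the discs in which *pnr* fell. *GATAd* stayed between means of 9.56 and 9.91 with no call in any of the 14 comparisons, *GATAe* was at or near the floor, and *srp*, the GATA gene of blood cells, was called in the Notch tumours, at 3.42 (limma adjusted p = 0.022), a call lost with the replicate block and with these groups alone. *srp* is itself a haemocyte marker, and that marker sum was higher in the same comparison.

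Among relatives of *oc*, the homeobox gene *Ptx1* stayed near the floor. *bcd*, the maternal gene of the embryonic head, was at the floor of 2.17 in the control and at means of 4.11 in ab and 4.51 in scrib-+ab, with an adjusted p of 0.0497 by limma in the latter. That call was lost in 5 of the alternative settings, and the filter on low values left the gene out. Of 7 genes of embryonic head patterning 6 were measured, and in ab 2 of them rose, against 8.68% of all probe sets called higher. *ems*, a head gap homeobox gene, rose by 1.67 in ab and by 2.08 in scrib-+ab (limma adjusted p = 0.00029 and 9.2e-05), and *btd*, a head gap zinc finger gene, rose by 2.25 in ab (limma adjusted p = 0.0044). *slp2*, a forkhead gene, fell by 1.53 in scrib-+ab (limma adjusted p = 0.0025).

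Of 8 opsin genes and photoreceptor targets of *oc*, the 2 reported here were *dve* and *Pph13*. *dve*, a homeobox gene that acts with Oc protein on opsin genes, fell by 1.04 in ab and by 2.41 in scrib-+ab (limma adjusted p = 0.041 and 0.0010), opposite to *oc*, and by 2.31 with active JNK in Ras tumours (limma adjusted p = 0.0015), as *oc* did. The call of *dve* in ab was lost with trended and robust eBayes and with the replicate block, and that in Ras tumours when these groups were fitted alone. *Pph13* was near the floor and was not called in these comparisons. Of 12 Wingless pathway genes only 4 are reported here. *Notum*, a secreted inhibitor of the pathway, rose in ab by 2.22 and in scrib-+ab by 1.74 (limma adjusted p = 0.0025 and 0.0063). Its means were 3.65 in the control, low on the scale, 5.86 in ab and 5.38 in scrib-+ab. *Wnt6*, a ligand gene, fell by 1.14 in scrib-+ab (limma adjusted p = 0.020), and *Axn* and *nkd*, intracellular inhibitors, were uncalled in the comparisons of ab and scrib-+ab with the control.

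Counted over all probe sets, *pnr* was among those lower with active JNK in both tumour types. In Ras tumours 458 probe sets were lower, 2.44% of all tested, and in Notch tumours 307, 1.64%. In both were 91 probe sets of 73 genes, which is 19.9% of the first list and 29.6% of the second. Of these 91, 44 probe sets of 40 genes were also lower in scrib-+ab than in ab, as were 2.46% of all probe sets. These 44 are 48.4% of the 91 and 9.54% of the list of scrib-+ab against ab. *pnr* was in this group. *oc* belonged to another, of 86 probe sets of 71 genes. These were lower with active JNK in Ras tumours and higher in ab than in the control. Over all probe sets 8.68% were called higher in ab than in the control. The sizes of these overlaps were not tested.

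The genes whose profile over the 21 arrays was most like that of *oc* were sought among 655 genes with a mean of at least 6 and an SD of at least 1. Their Pearson correlations with *oc* were 0.963 for *CG14440*, 0.961 for *Lsd-2*, a lipid droplet protein gene, 0.960 for *SAK*, a kinase gene of centriole duplication, 0.959 for *RYBP*, a Polycomb-associated gene, and 0.956 for *Abl*, a tyrosine kinase gene. They shared the rise of *oc* in the ab-expressing discs. *SAK*, for example, had a mean of 11.29 in ab and of 11.03 in scrib-+ab, against 8.60 in the control and 8.17 to 8.80 in the other 4 groups. The most opposite profiles were those of *Pgam5*, a mitochondrial phosphatase gene (-0.943), *CG9691* (-0.938) and *Acat2*, an acetyl-CoA acetyltransferase gene (-0.938). In all, 62 of the 655 genes had a correlation over 0.9 with *oc*, and the high end of the *oc* range is held by the 6 ab and scrib-+ab arrays, which also stand apart in their spike-in and GAPDH controls.

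The profile of *pnr* had fewer like it, with 4 of 656 genes over 0.9. They were *CG6287* (0.928), *CG5758* (0.920), *cysu* (0.917) and *E(spl)malpha-BFM* (0.9002), a Bearded family gene of the Enhancer of split complex that responds to Notch, followed by *CG3842* (0.898). *cysu* had means of 8.41 in the control, 8.42 in ab, 4.31 in scrib-+ab, 6.17 in scrib-+RasACT and 7.81 with bskDN, and 5.72 in scrib-+NACT and 8.41 with bskDN. The lowest means were, as for *pnr*, those of scrib-+ab, then scrib-+NACT, then scrib-+RasACT, over a wider range. The order of the other groups differed, with scrib-+RasACT+bskDN the highest for *pnr* but under the control for *cysu*. *flap* (-0.974), *CG9932* (-0.944) and *Targ2* (-0.920) ran most opposite, *flap* from 8.23 in scrib-+NACT+bskDN to 12.88 in scrib-+ab. These correlations are descriptions over 21 arrays that share 7 genotypes, and no p was computed.

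**Figure D5:**
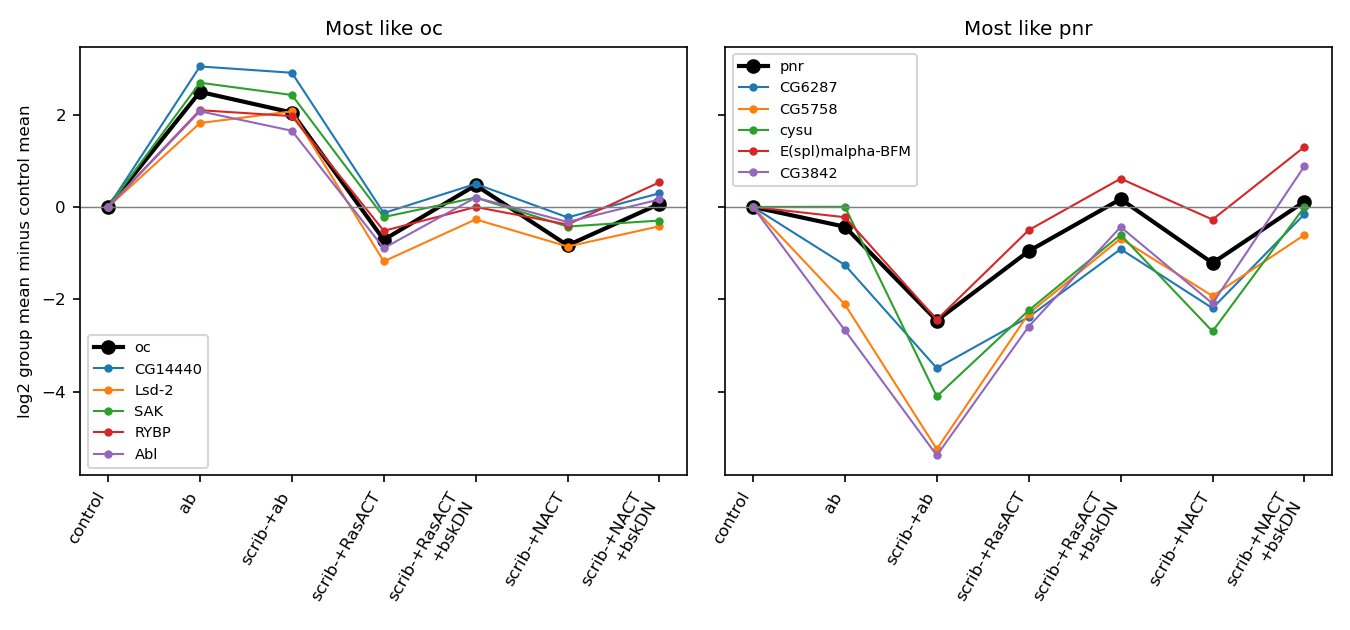
Group means of *oc* (left, black) and *pnr* (right, black) and of the 5 genes most correlated with each over the 21 arrays, as log2 differences from the control mean, for the 7 genotypes on the x axis. The genes like *oc* rise in ab and scrib-+ab, and the genes like *pnr* are lowest in scrib-+ab and lower in the Ras and Notch tumours than in the same tumours with bskDN.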

How the data were processed

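RNA of 21 mosaic eye-antennal disc samples was hybridised to Affymetrix Drosophila Genome 2.0 arrays, as biotin-labelled cRNA, per the labels. Values were deposited as log2 signal for each probe set, which the authors made with GCRMA (version not given in the sources used here), and which arrays were normalised together is not stated. Arrays have no count depth, so that their number limits the precision. After removal of 183 AFFX control probe sets, 18769 were tested with no filter. Of these, 13647 have 1 symbol, 402 several and 4720 none, with symbols updated through the RefSeq gene table of assembly Release 6 plus ISO1 MT. A gene with several probe sets was represented by the one with the highest mean.

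Groups came from the labels. Linear models (limma 3.58.1, R 4.3.3; lmFit, eBayes, Benjamini-Hochberg over all probe sets) were fitted to group means: on 9 arrays for ab, scrib-+ab and the control, on 12 arrays for the Ras and Notch groups, and on all 21 for comparisons across these sets and for the ranking of groups. Each p in the report is from these fits, which were tested on simulated data. The genes named were *oc* and *pnr*, the called members of fixed lists with those uncalled whose role matters, and the 5 most and 3 least correlated genes. The members, lists and tests were chosen with earlier results of these data known. The alternatives were a further quantile normalization, centring on the median, a filter at a mean of 4, trended and robust eBayes, array weights, a replicate block, other sets of arrays, and leaving out each array. Several listed genes are not reported here. Replicate labels shared between groups were checked as pairs: residuals of same-numbered arrays correlated over 0.1 for every number only between scrib-+RasACT and the control (0.134, 0.142 and 0.222), and nothing in the labels ties the numbers to a shared batch.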

Additional observations from a re-analysis of the deposited data

Results flagged for a closer look

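Whether the JNK difference in Ras tumours differs from that in Notch tumours was tested as an interaction. Of the 39 genes of the lists other than the cell markers, 5 were called, where 4.51% of all probe sets were called. *oc* and *pnr* were not among them. The markers were left out of this count, and of these *sens*, *nub*, *mira*, *insc*, *repo*, *NimC1* and *Hml* were also called. *eya* had a JNK difference of -0.72 in Ras and 0.85 in Notch tumours, an interaction of -1.57 (limma adjusted p = 0.00026). *so*, a homeobox gene of the retinal network, was at -0.75 and 0.41, an interaction of -1.16 (limma adjusted p = 0.0024). *ey* was at 0.78 and -0.46, an interaction of 1.25 (limma adjusted p = 0.025). *ac* was at -1.44 and 0.91, an interaction of -2.35 (limma adjusted p = 0.0061), and *sc* at -1.85 and -0.12, an interaction of -1.73 (limma adjusted p = 0.019).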

How the results depend on the processing

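Over the alternative settings, *oc* and *pnr* kept direction and side of the threshold in 209 of 210 gene and comparison pairs. The exception was *oc* in Notch tumours with against without active JNK, at -1.0003 with array weights. Leaving out each array in turn changed 4 of 180 pairs: *pnr* in scrib-+RasACT against the control ranged from -1.05 to -0.83 and passed the size limit without 3 of the arrays, and *oc* in scrib-+NACT+bskDN against the control ranged from -0.052 to 0.19, negative without control replicate 1. A further quantile normalization moved *pnr* in scrib-+ab to -1.81 against scrib-+RasACT and to -1.55 against scrib-+NACT. The uncalled differences of *oc* from the control had adjusted p up to 0.065 in scrib-+RasACT and 0.061 in scrib-+NACT. The replicate block changed no call of either gene, with *oc* at -0.83 in the Notch tumours (limma adjusted p = 0.080). The mean over probe sets was not run, since each gene has 1.

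The backgrounds moved more. Between scrib-+ab and ab 803 probe sets were called, and 250 with trended and robust eBayes, 467 with array weights, 477 with the replicate block and 461 with the groups alone. For JNK in Ras tumours, 792 became 430 with the block and 424 with the groups alone, in Notch tumours 1008 became 538 with the block, and for the interaction 847 became 250 with the block and 1291 with array weights. Between the Ras and Notch tumours 369 became 65 with the block, 84 alone, 654 with array weights and 600 without scrib-+RasACT replicate 3. With bskDN 1183 became 658 with the block, and for scrib-+RasACT against the control 1207 became 625 alone. A further quantile normalization moved the split of higher calls from 1629 of 2730 to 1320 of 2764 in ab against the control, from 701 of 1008 to 599 of 1026 for JNK in Notch tumours, from 229 of 847 to 427 of 956 for the interaction, from 800 of 1183 to 697 of 1310 between the bskDN groups, and from 296 of 1072 to 448 of 1086 for scrib-+NACT+bskDN against the control.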
